A study of Mus musculus with 30 samples.

Results

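H3K4me3, the trimethylation of lysine 4 on histone H3 that marks active and poised promoters, was mapped by chromatin immunoprecipitation and sequencing (ChIP-seq) in mouse embryonic stem cells depleted of EPOP. All peaks of 3 deposited H3K4me3 peak lists were taken: 1 list upon EPOP knock-down with 39967 peaks, H3K4me3 replicate 1 with 35027 peaks and H3K4me3 replicate 2 with 42857 peaks. These are 117851 of the 240359 peaks in the 20 ChIP lists of the series at hand. The cells in every group were E14Tg2A, a male line grown without feeders in serum and LIF. EPOP was depleted with a short hairpin RNA delivered by lentivirus and selected with puromycin. The labels name neither list without knock-down by its method, but per the file headers replicate 1 is the list named for a control hairpin and replicate 2 the list named for a control small interfering RNA. Replicate 1 is thus matched to the knock-down list in delivery, and replicate 2 differs from both in the method. If these names hold, the replicates came from differently treated cells. The gap between them then mixes treatment, culture and technical differences, which cannot be told apart. The same antibody and lot was used for all 3 lists. Lists of EPOP, Suz12, elongin B (EloB), Jarid2 and H3K27me3 without knock-down served to class loci. Lists of Suz12, Jarid2 and H3K27me3 upon EPOP knock-down and of H3K4me3 upon EloB knock-down were also compared. The sample titles do not name the method of the EloB knock-down.

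EPOP is an accessory protein of Polycomb repressive complex 2 (PRC2), the enzyme complex that deposits H3K27me3 at silent developmental promoters, and it also binds the elongin B and elongin C pair. H3K4me3 is written by the SET1 and MLL methyltransferase complexes at CpG-rich promoters. In embryonic stem cells many PRC2 target promoters carry both marks and are called bivalent, so H3K4me3 peaks there can be read at the same places as EPOP, the PRC2 subunits Suz12 and Jarid2, and H3K27me3.

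Upon EPOP knock-down H3K4me3 kept nearly all of its places, and those bound by EPOP almost without exception. Peak number, covered length and median peak width of the knock-down list at shared loci lay between replicate 1 and replicate 2. The median deposited score at shared loci also lay between them, at 644 upon knock-down, 564 in replicate 1 and 1022 in replicate 2. Over all peaks of each list, shared or not, the median score was lower upon knock-down than in either replicate. Of the loci with an H3K4me3 peak in both replicates, 96.1% (95% Wilson interval 95.9 to 96.3) also had one upon knock-down. At EPOP-bound loci the share was 99.6% (99.4 to 99.7). Strong loci free of EPOP were kept as well: at replicate 1 scores of 500 or more, 8669 of 8670 had a knock-down peak. The loci that were missing or new upon knock-down were mostly weak, narrow peaks at which no EPOP, Suz12 or H3K27me3 peak was called. With 1 list upon knock-down there is no replicate of that condition and no test, so every comparison is set beside the gap between replicate 2 and replicate 1. Intervals cover counting of loci only.

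The knock-down list covered 74.0 Mb, against 63.0 Mb in replicate 1 and 80.8 Mb in replicate 2. Its peak number was 1.03 times the mean of the replicates (38942 ± 5537, SD, n = 2) and its covered length 1.03 times theirs (71.9 ± 12.6 Mb, SD, n = 2). These means and SDs are over lists of different control methods. Against replicate 1 alone, the list matched in delivery, the ratios were 1.14 for peak number and 1.18 for covered length. Against replicate 2 alone they were 0.933 and 0.916. Replicate 2 held 1.22 times the peaks and 1.28 times the covered length of replicate 1, a wider gap than either replicate had to the knock-down list. The typical peak hardly differed, with a median width of 1423 bp upon knock-down, 1413 bp in replicate 1 and 1420 bp in replicate 2. The widest peaks measured 33807, 32579 and 33848 bp in the same order of lists.

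To follow single places, overlapping peaks of the 3 lists were merged into 45458 loci, with the summed peak width and the highest score of each list at each locus. The score is the authors' deposited value for a peak. It starts at 50 in each list, and no source used here defines it. Its median over peaks was 320 upon knock-down, 393 in replicate 1 and 378 in replicate 2. The share of peaks with a score of 3100 or more was 19.1%, 23.1% and 23.0% in the same order. Whether this reflects weaker signal was not tested. Apart from median scores and 1 cut applied to all 3 lists among the alternatives, the score is read only within a list. All 3 lists had a peak at 30800 loci (67.8%). Median locus widths there were 1740 bp upon knock-down, 1571 bp in replicate 1 and 1868 bp in replicate 2. The median of the highest score per locus was 644, 564 and 1022 in the same order, so the lower knock-down median held over all peaks only.

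A total of 2522 loci had a peak upon knock-down and in neither replicate, which is 6.6% of the 38198 loci of the knock-down list. Replicate 2 alone had a peak at 5501 loci and replicate 1 alone at 514, so the number of loci held by the knock-down list alone lay between those of the replicates. At these new loci the median score was 66.1, near the floor of the list, and the median width 760.5 bp. Of them 15 (0.595%) overlapped an EPOP region found in both EPOP replicates, 12 (0.476%) a Suz12 region and 34 (1.35%) an H3K27me3 peak. EPOP lay on 1.36% of the loci of replicate 1 alone, on 2.80% of those of replicate 2 alone and on 18.7% of those in all 3 lists. The H3K4me3 list upon EloB knock-down is a separate sample and, with 47296 peaks, longer than each of the 3 lists. It had a peak at 51.3% of the new loci, at 52.9% of those of replicate 1 alone and at 71.9% of those of replicate 2 alone. New loci lay a median of 7.10 kb from the nearest locus in all 3 lists. The distance was 24.1 kb for those of replicate 1 alone and 9.95 kb for those of replicate 2 alone. Loci in all 3 lists themselves lay a median of 9.03 kb from the nearest other such locus.

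Conversely, 1245 loci had a peak in both replicates and none upon knock-down, which is 3.89% of the 32045 loci of both replicates. By the same reading 4357 loci were missing from replicate 1 alone and 519 from replicate 2 alone. The count for the knock-down list thus lay between those of the replicates. Loci missing upon knock-down had a median score of 68.6 in replicate 1 and 97.4 in replicate 2, and median widths of 640 and 728 bp. The EloB knock-down list had a peak at 87.9% of the loci missing upon EPOP knock-down. The share was 90.9% for loci missing from replicate 1 alone, 73.8% for those missing from replicate 2 alone and 99.4% for loci in all 3 lists. Loci missing upon knock-down lay a median of 23.3 kb from the nearest locus in all 3 lists. The distance was 7.16 kb for those missing from replicate 1 alone, 12.1 kb for those missing from replicate 2 alone and 9.03 kb between loci in all 3 lists. Of the loci missing upon knock-down 25 (2.01%) overlapped EPOP, 31 (2.49%) Suz12 and 36 (2.89%) H3K27me3, against 18.7%, 19.5% and 19.6% of the loci in all 3 lists. EPOP lay on 3.37% of the loci missing from replicate 1 alone and on 0.385% of those missing from replicate 2 alone.

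**Figure D1:**
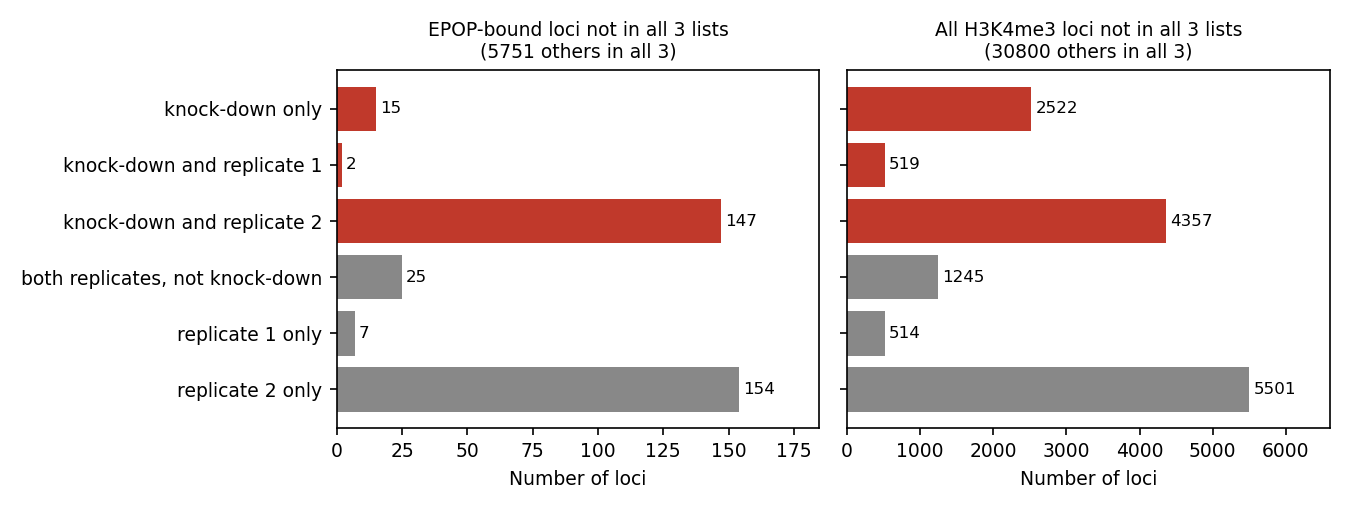
Number of loci (x axis) by the combination of the 3 H3K4me3 lists that had a peak (y axis), for EPOP-bound loci on the left and all loci on the right, with loci in all 3 lists left out; red bars hold a knock-down peak and grey bars none. At EPOP-bound loci 15 were in the knock-down list alone and 25 in both replicates but not upon knock-down, and replicate 2 alone held 154.

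Whether a locus was found again depended on how strong it was. Among loci of replicate 1 with a score of 50 to 75, the knock-down list had a peak at 71.5% and replicate 2 at 81.8%. At scores of 100 to 150 the shares were 95.1% and 97.6%, and at 150 to 250 they were 99.1% and 99.7%. At 500 to 1000 the knock-down list had a peak at 2876 of 2877 loci, and it had one at each of the 8036 loci of replicate 1 with a score of 3100 or more. Read from replicate 2, whose list is longer, the order was the other way: at scores of 50 to 75 the knock-down list had a peak at 36.4% of loci and replicate 1 at 19.3%, and at 150 to 250 at 89.4% and 76.6%. Over all scores the knock-down list had a peak at 94.7% (94.4 to 94.9) of replicate 1 loci, against 96.9% for replicate 2, and at 83.9% (83.5 to 84.2) of replicate 2 loci, against 76.5% for replicate 1.

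**Figure D2:**
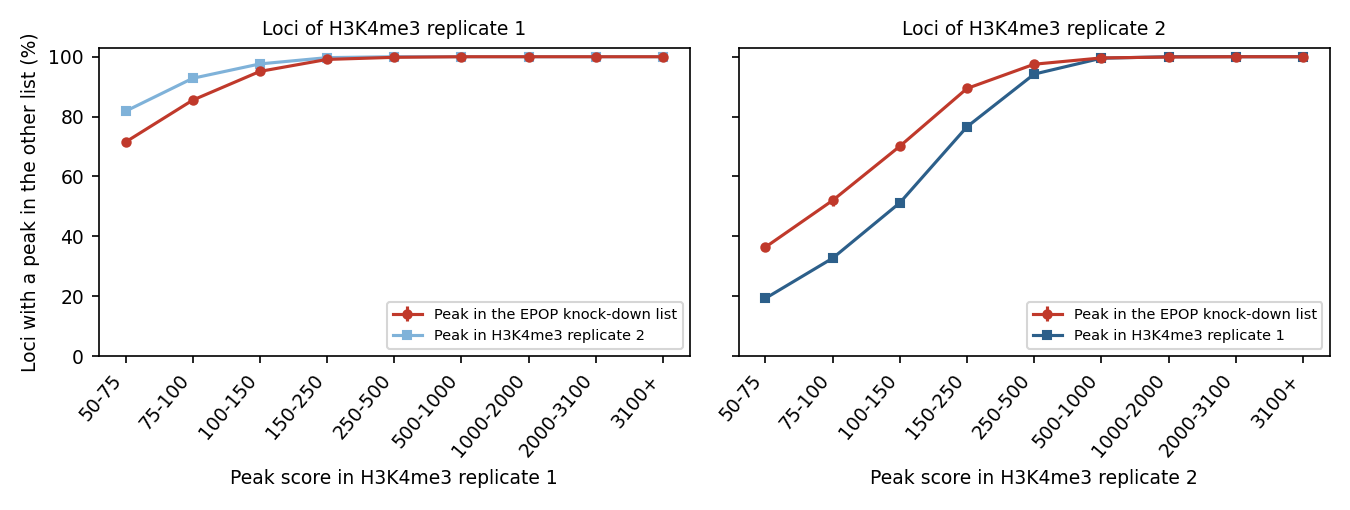
Share of loci with a peak in another list (y axis, %) by the deposited score of the locus (x axis, ranges of score) in replicate 1 on the left and in replicate 2 on the right; red is the knock-down list with 95% Wilson intervals, mostly smaller than the points, and blue the other replicate. Shares near 100% are reached above a score of 150 for replicate 1 loci, and above 500 for replicate 2 loci.

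EPOP-bound loci, those overlapping an EPOP region of both EPOP replicates without knock-down, were set against EPOP-free loci. The latter overlap no EPOP peak of either EPOP replicate. The 4758 loci with EPOP in 1 replicate were left out of both classes. Since every locus holds an H3K4me3 peak in at least 1 list, the 6101 EPOP-bound loci are the size of that class. Of them 5776 had a peak in both H3K4me3 replicates, and 5751 of these kept one upon knock-down. Of the 34599 EPOP-free loci, 21948 were in both H3K4me3 replicates and 20779 of these, 94.7%, kept a peak. Missing loci were 0.433% of EPOP-bound and 5.33% of EPOP-free loci. Of the loci in the knock-down list, 0.254% were new among EPOP-bound and 8.86% among EPOP-free ones. EPOP-bound loci were also stronger, with a median score in the knock-down list of 1369 against 205 at EPOP-free loci, and in replicate 1 of 1345 against 231.

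Strong loci of both classes were kept: at replicate 1 scores of 500 or more, the knock-down list had a peak at 4423 of 4423 EPOP-bound and 8669 of 8670 EPOP-free loci. At low scores the difference between the classes varied in sign and size with the list and the range of score it was read from. At replicate 1 scores of 50 to 75 the knock-down list had a peak at 81.7% of 126 EPOP-bound loci and at 70.6% of 3770 EPOP-free ones, and replicate 2 had one at 92.9% and 80.9%. At 75 to 100 the knock-down list had a peak at 92.3% of 91 EPOP-bound and 84.8% of 2414 EPOP-free loci, against 100% and 92.3% for replicate 2. Read from replicate 2 at 50 to 75, the shares in the knock-down list were 37.6% of 85 EPOP-bound and 36.2% of 4684 EPOP-free loci, against 12.9% and 19.3% in replicate 1. At 75 to 100 they were 36.3% and 52.2% in the knock-down list, against 19.8% and 32.8% in replicate 1, and at 100 to 150 they were 62.5% and 70.0%, against 32.0% and 51.4%. These ranges by EPOP were added after the data were seen.

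Seen from the other side, H3K4me3 stayed on the regions of the PRC2 proteins. Of 5720 EPOP regions, 97.4% had an H3K4me3 peak upon knock-down, against 95.9% in replicate 1 and 98.3% in replicate 2. Both replicates but not the knock-down list had one at 10 of them, and the knock-down list alone at 7. Of 5669 Suz12 regions (Suz12 is a core subunit of PRC2), 98.6% had a peak upon knock-down, against 97.6% in replicate 1 and 99.2% in replicate 2. At 2641 peaks of Jarid2, an accessory subunit of PRC2, the shares were 96.7%, 95.2% and 97.6% in the same order, and of 930 regions of EloB, the elongin B protein that EPOP binds, 882, 881 and 893 had a peak. H3K27me3 peaks are broad and many lack H3K4me3: of 8811, 76.3% had an H3K4me3 peak upon knock-down, 73.9% in replicate 1 and 78.3% in replicate 2. H3K4me3 peaks took up 75.2% of the length of EPOP regions upon knock-down, against 70.6% in replicate 1 and 79.9% in replicate 2. In each of these 5 sets the knock-down list lay between the replicates.

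The width of H3K4me3 at loci in all 3 lists was compared next. The median log2 ratio of knock-down to replicate 1 was 0.10 (quartiles over loci 0.0022 and 0.25), and 75.4% of loci were wider upon knock-down than in replicate 1. Against replicate 2 the median was -0.054, with 64.5% of loci narrower upon knock-down. Replicate 2 over replicate 1 gave 0.16, with 85.4% of loci wider in replicate 2. The knock-down width thus lay between the replicates at 47.0% of loci, above both at 31.9% and below both at 21.1%. A change of at least 1.5-fold beyond each replicate was rare: 176 loci (0.571%) were wider and 153 (0.497%) narrower upon knock-down. The same fold between single lists was met more often, with 1784 loci wider and 204 narrower for knock-down against replicate 1, 338 wider and 1134 narrower for knock-down against replicate 2, and 2753 wider and 97 narrower for replicate 2 against replicate 1.

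EPOP-bound loci followed the same order. Their median width was 1910 bp upon knock-down, 1778 bp in replicate 1 and 2030 bp in replicate 2, and that of EPOP-free loci 1584, 1382 and 1697 bp. At EPOP-bound loci the median log2 ratio was 0.078 for knock-down over replicate 1, -0.076 for knock-down over replicate 2 and 0.15 for replicate 2 over replicate 1. At EPOP-free loci the same ratios were 0.11, -0.047 and 0.17. EPOP-bound loci therefore had a slightly lower knock-down width relative to either replicate, by -0.037 against replicate 1 and -0.028 against replicate 2, where the difference between the classes in the ratio of the replicates was -0.015. Within quartiles of width, narrow to wide, the difference against replicate 1 was -0.010, -0.071, -0.025 and -0.026, and in the ratio of the replicates 0.057, -0.043, -0.017 and -0.018. EPOP-bound loci were above both replicates in 23.7% and below both in 23.6%, against 34.1% and 21.2% of EPOP-free loci. The 4758 loci with EPOP in 1 replicate were also strong, with a median knock-down score of 1510. Their median log2 ratios were 0.11 over replicate 1 and -0.0505 over replicate 2, with 32.2% above both and 17.7% below both. Each of these ratios and shares lay nearer to EPOP-free than to EPOP-bound loci. At 1.5-fold, 7 EPOP-bound loci (0.122%) were wider and 6 (0.104%) narrower, while 162 EPOP-free loci (0.780%) were wider and 137 (0.659%) narrower. Of EPOP-bound loci, 3.95% were split into several peaks upon knock-down, 4.80% in replicate 1 and 1.72% in replicate 2, and over all loci these shares were 4.98%, 5.57% and 2.79%.

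**Figure D3:**
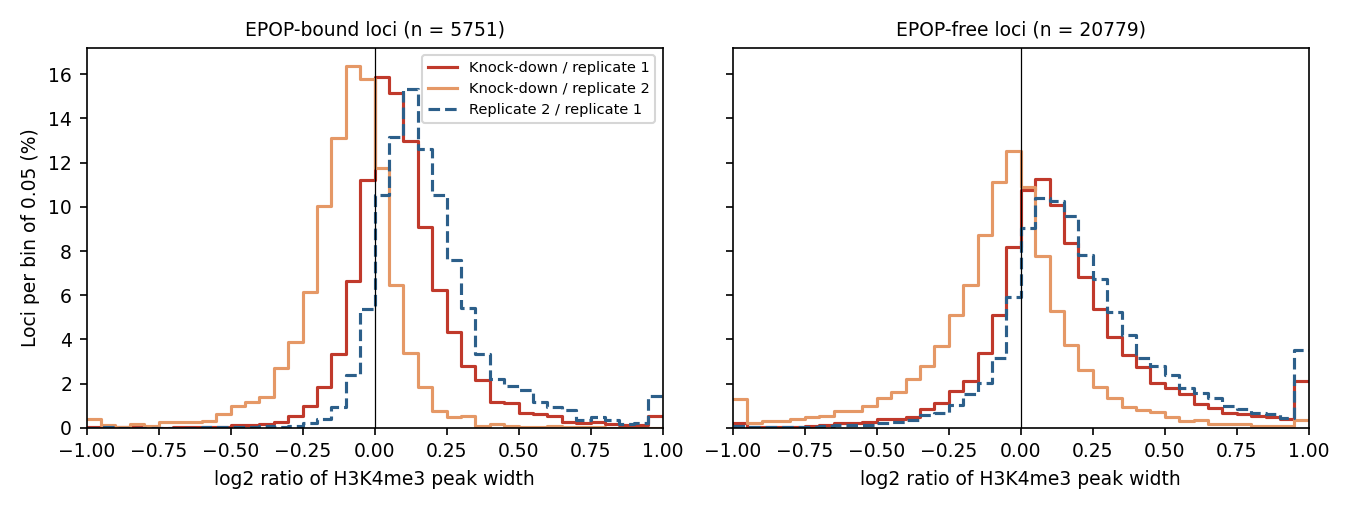
Share of loci per bin of 0.05 (y axis, %) by the log2 ratio of summed H3K4me3 peak width between a pair of lists (x axis), for EPOP-bound loci on the left and EPOP-free loci on the right; the outermost bins also hold loci beyond the axis. Knock-down over replicate 1 (red) lies right of 0 and knock-down over replicate 2 (orange) left of it in both classes, with medians of 0.078 and -0.076 at EPOP-bound loci.

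EPOP-bound loci were then split by the proteins and marks that lay on them. The 854 loci bound by EPOP and by EloB kept H3K4me3 at 823 of 825 loci (99.8%), and their median widths were 2436 bp upon knock-down, 2268 bp in replicate 1 and 2581 bp in replicate 2. Where EPOP lay without EloB (4607 loci), 99.6% were kept. The log2 ratios of knock-down over replicate 1 were 0.062 with EloB and 0.084 without, and those over replicate 2 were -0.072 and -0.074. With Jarid2 on the locus (2620 loci) the ratios were 0.062 over replicate 1 and -0.085 over replicate 2, and without Jarid2 (3481 loci) they were 0.090 and -0.068. Knock-down widths were above both replicates in 21.2% and below both in 26.6% of the EPOP-bound loci with Jarid2, against 25.5% and 21.4% of those without it. With Suz12 (5513 loci) the ratios were 0.075 and -0.079, and at the 228 EPOP-bound loci without Suz12, of which 206 of 207 were kept, they were 0.13 and -0.037. Replicate 2 over replicate 1 gave between 0.15 and 0.17 in each of these subclasses.

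Loci at which another mark was called differently upon EPOP knock-down were looked at as well. Jarid2 was called only upon knock-down at 1219 H3K4me3 loci, and 1172 of the 1177 of these that were in both replicates (99.6%) kept H3K4me3. Width ratios there were 0.068 over replicate 1 and -0.082 over replicate 2, against 0.089 and -0.067 at 2587 Suz12 loci without Jarid2 in either list. At 1190 loci an H3K27me3 peak without knock-down had no counterpart upon knock-down; H3K4me3 was kept at 99.2% of them, with width ratios of 0.11 over replicate 1 and -0.052 over replicate 2. At 5390 loci that kept H3K27me3 the share was 99.4% and the ratios were 0.076 and -0.080. Knock-down widths of H3K4me3 were above both replicates at 31.3% and below both at 17.3% of the loci without the H3K27me3 peak, against 22.5% and 24.5% of those that kept it. Over all loci these shares were 31.9% and 21.1%, and replicate 2 over replicate 1 gave 0.18 at the loci without and 0.16 at those with the kept H3K27me3 peak. H3K27me3 and Jarid2 have 1 list in each condition, so a peak absent there has no replicate check.

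**Figure D4:**
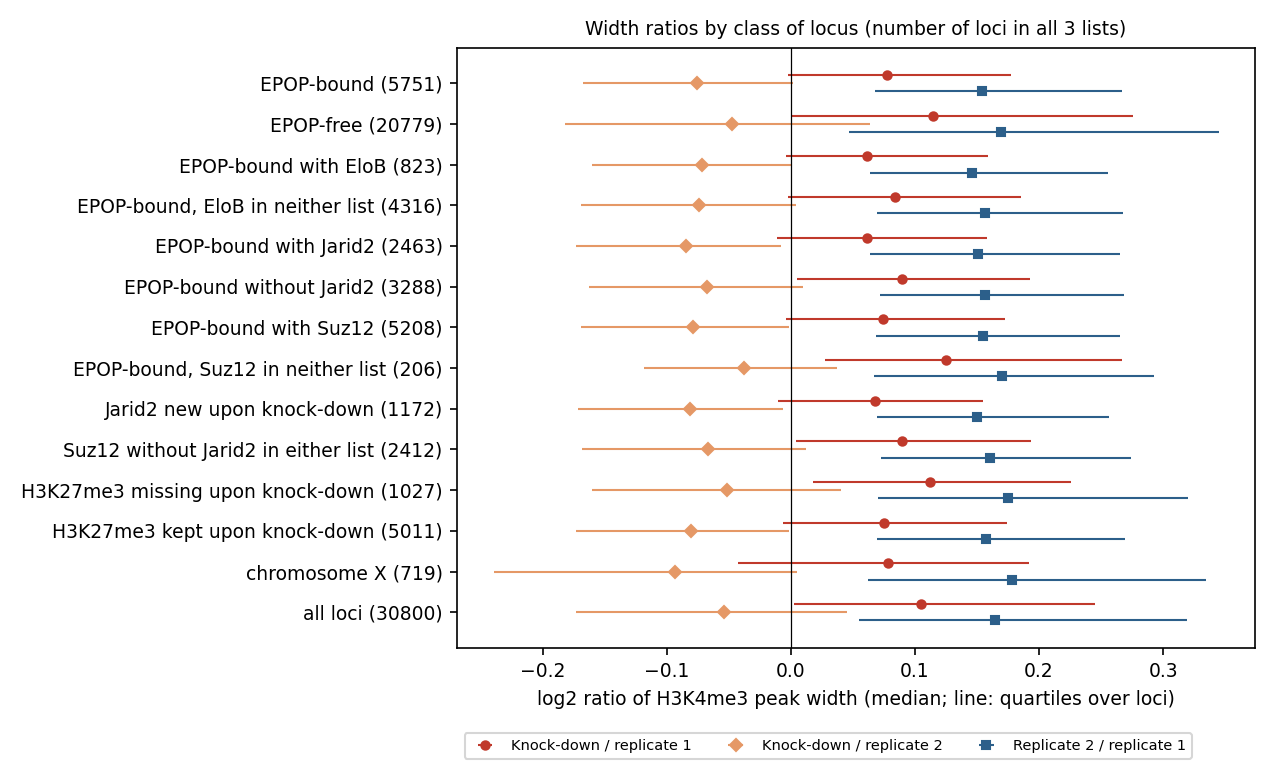
Median log2 ratio of H3K4me3 peak width (x axis) for classes of locus (y axis, with the number of loci in all 3 lists); lines run between the quartiles over loci. In every class shown the ratio of knock-down to replicate 1 is positive, the ratio of knock-down to replicate 2 negative, and the ratio of replicate 2 to replicate 1 the largest.

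In 2 long stretches the H3K27me3 list upon knock-down had no peak, while H3K4me3 was present in all lists; they were picked with the H3K27me3 lists known. The first, chr15:102779763-102848595 of mm9, spans 68833 bp and held 8 H3K27me3 peaks without knock-down. It held 10 H3K4me3 peaks with 13946 bp upon knock-down, 8 with 10615 bp in replicate 1 and 8 with 16332 bp in replicate 2. Of its 8 H3K4me3 loci, 7 were in all 3 lists and each of the 8 was EPOP-bound. Suz12 upon knock-down had 14 peaks there, and Jarid2 had 14 upon knock-down and 13 without. Suz12 regions without knock-down ran from before its start to 68.5 kb, with a break at 45.1 kb. Those regions are merged over both replicates, so their number does not compare with the peak count upon knock-down. The second, chr11:96129485-96196029, spans 66545 bp and held 5 H3K27me3 peaks without knock-down. It held 10 H3K4me3 peaks with 15343 bp upon knock-down, 9 with 10595 bp in replicate 1 and 14 with 18731 bp in replicate 2. Of its 13 loci, all EPOP-bound, 8 were in all 3 lists. Suz12 upon knock-down had 7 peaks there, and without knock-down 1 merged Suz12 region spanned the whole stretch. In both stretches the H3K4me3 width upon knock-down lay between the replicates. Whether H3K27me3 signal remained there below the peak threshold was not tested.

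**Figure D5:**
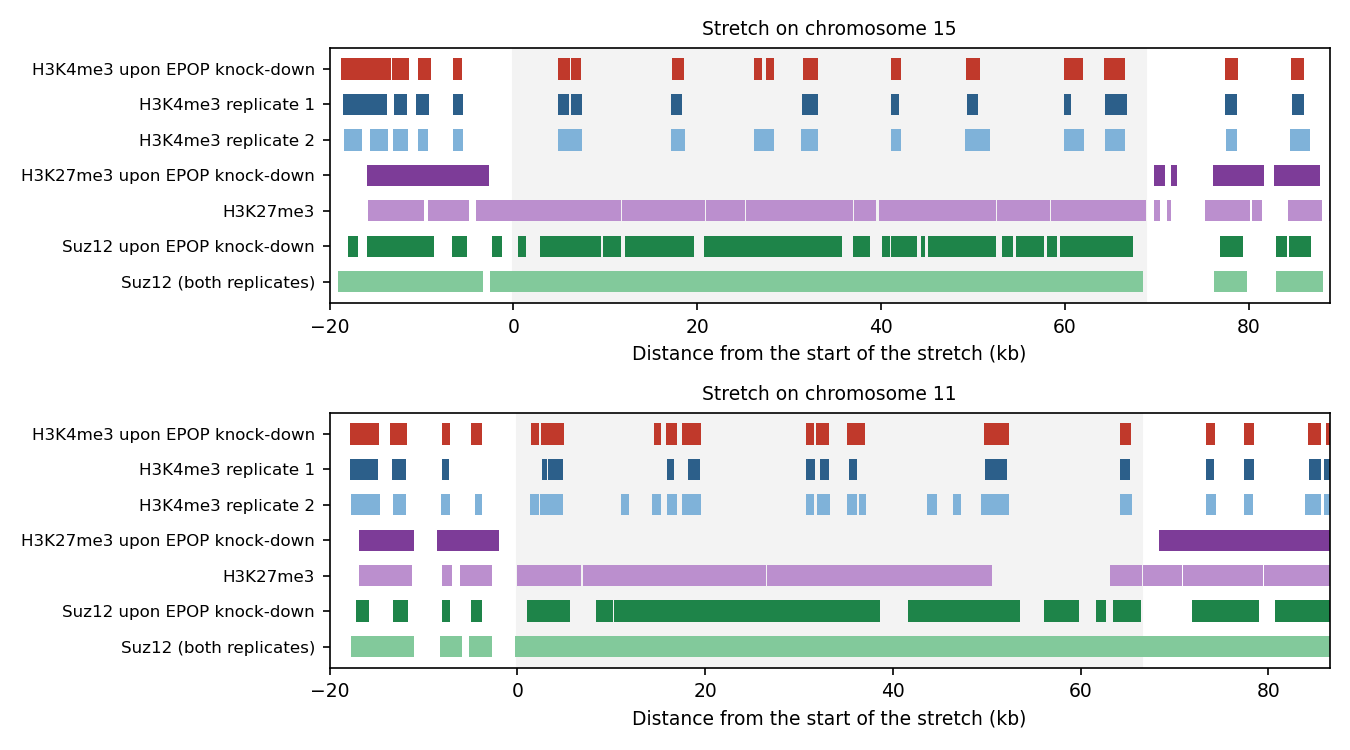
Peaks (bars) along the stretches on chromosomes 15 and 11 without an H3K27me3 peak upon knock-down (grey ground), with 20 kb on either side; the x axis is the distance from the start of the stretch in kb and each row is 1 list. H3K4me3 peaks stand at mostly the same places in the 3 lists, with 10 peaks upon knock-down in each stretch.

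Single loci show the size of the extremes. No gene is assigned to them, because no annotation of mm9 was used here. The new locus with the highest score was chr11:88842118-88843747, with a peak of 1630 bp and a score of 301.55 upon knock-down and none in either replicate. The next, chr1:129685155-129687283, had a peak of 2129 bp and a score of 298.8 upon knock-down, and the EloB knock-down list also had a peak there. The missing locus with the highest replicate 1 score was chr11:116859371-116861002, without a peak upon knock-down, against 1604 bp in replicate 1 and 1619 bp in replicate 2. Its neighbour chr11:116861072-116864079 had the smallest ratio of knock-down width to the nearer replicate, 0.299, with 510 bp upon knock-down, against 1704 bp in replicate 1 and 2999 bp in replicate 2. At chr9:17359776-17362148 no peak was called upon knock-down, against 2129 bp in replicate 1 and 2373 bp in replicate 2. The EloB knock-down list had a peak at each of the 5 missing loci with the highest replicate 1 score, and none of the 5 lay on EPOP. Over all missing loci these shares were 87.9% and 2.01%.

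The largest width ratio was at chr10:62368639-62371665, with 3011 bp upon knock-down, against 627 bp in replicate 1 and 518 bp in replicate 2, so that the knock-down peak was 4.80 times the nearer replicate. At chr4:55375473-55379242 the widths were 3594 bp upon knock-down, 869 bp in replicate 1 and 821 bp in replicate 2. On chromosome 17, 2 of the 5 loci with the largest ratios lay close together: chr17:27746754-27750061 with 3308 bp upon knock-down, 1198 bp in replicate 1 and 828 bp in replicate 2, and chr17:27730968-27734493 with 3477, 931 and 1478 bp in the same order. None of these widest-ratio loci overlapped EPOP. Because EPOP lay on 18.7% of the loci in all 3 lists, so few loci cannot tell whether this differs.

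At EPOP-bound loci the extremes were smaller; these were chosen after their values were seen. The missing EPOP-bound locus with the highest replicate 1 score, chr11:85703140-85704959, had no peak upon knock-down, against 1157 bp in replicate 1 and 1820 bp in replicate 2, and it also held Suz12, Jarid2 and H3K27me3. The largest 1.5-fold widening was at chr10:117119769-117121721, with 1941 bp upon knock-down, 786 bp in replicate 1 and 1157 bp in replicate 2. The strongest narrowing was at chr18:37901327-37902777, with 573 bp upon knock-down, against 1300 bp in replicate 1 and 1375 bp in replicate 2. At chrX:68302847-68304879 the locus measured 779 bp upon knock-down, against 1438 bp in replicate 1 and 2033 bp in replicate 2. The new EPOP-bound locus with the highest score, chr12:9576714-9577290, was 577 bp wide with a score of 89.4. Of the widest EPOP-bound loci, chr1:134085936-134101538 was narrower upon knock-down than in either replicate, with 13105 bp upon knock-down, 14441 bp in replicate 1 and 15603 bp in replicate 2. In the same order of lists chr7:28109260-28123357 had 14070, 13041 and 13903 bp, and chr5:143572161-143586633 had 14104, 12091 and 14473 bp. Among the loci in all 3 lists with the highest scores, chr15:38837030-38839120, which held EPOP and Suz12, had 1829 bp upon knock-down, 2091 bp in replicate 1 and 1893 bp in replicate 2.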

How the data were processed

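The authors deposited 1 BED peak list per ChIP sample, with coordinates in mm9, given here counted from 1, and a score per peak. Per the submitters' processing notes, the tools named are Bowtie, TopHat and Cufflinks, in roles not given, and the build is mm9; peak names carry MACS per the files. The deposited score has no stated definition, and read depth is unknown. Peaks of the 3 H3K4me3 lists that overlapped by at least 1 bp were merged into loci. EPOP-bound loci overlap an EPOP region of both replicates, and EPOP-free ones no EPOP peak; Suz12 and EloB were treated alike, and Jarid2 and H3K27me3 had 1 list. No test across lists was possible. Named loci were the 5 with the highest score among new, missing and shared loci and the 5 with the largest and smallest ratio of knock-down width to the nearer replicate (mean width of at least 1000 bp), of which some are printed. Fixed gene lists were not used for want of an mm9 annotation. Comparisons and classes were chosen with earlier results of these data known. Tools were bedtools 2.31.1, Python 3.11.15, SciPy 1.17.1, NumPy 2.4.6 and Matplotlib 3.10.9. The overlap code matched bedtools in 60 of 60 pairs of lists and was tested on simulated data: with 35027 simulated peaks, the kept share over all loci came back within 0.0201 percentage points, and the EPOP-bound minus EPOP-free difference in log2 width within 0.0022. The simulated replicates were identical and 1 EPOP list set both classes, so disagreement between replicates was not part of this check.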

Additional observations from a re-analysis of the deposited data

How the results depend on the processing

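Of 76 values under alternatives for 10 results, 53 stayed within the spread between replicates or within 1.5 times the count, 18 moved and 5 changed side. Some of the 53 were fixed in advance. The alternative rules for overlapping and joining peaks cannot change the peak number and covered length ratios. Lists of equal length set the peak number ratio to 1. The spread comes from leaving out each replicate, which also gave values among the 76. The count of 53 is therefore no measure of robustness. The higher-scoring part held peaks with a score of at least 384, a cut applied to every list alike. The median score over all peaks of a list was lower upon knock-down (320) than in replicate 1 (393) or replicate 2 (378). Values of the higher-scoring part therefore rest on comparing an undefined score across lists. There the peak number ratio was 0.961 and the covered length ratio 0.979, and both are among the 5 values that changed side. The higher-scoring part held 213 new, 353 missing, 43 wider and 80 narrower loci, with a class difference in log2 width of -0.017. At 2-fold, 22 loci were wider and 30 narrower. The class difference in width was -0.042 with peaks up to 1000 bp apart joined, -0.024 with an EPOP peak of either replicate counted as bound and -0.032 within quartiles of width. That in kept share was 4.89 percentage points in the main setting. It was 1.53 within quartiles of width and 1.92 in the higher-scoring part. Leaving out replicate 1 or replicate 2, the peak number ratio ran from 0.933 to 1.14, the covered length ratio from 0.916 to 1.18, and the width change, knock-down over the remaining list, from -0.053 without replicate 1 to 0.10 without replicate 2. Over the same alternatives the kept share ran from 83.9 to 94.6%, new loci from 3061 to 7255, missing loci from 1845 to 6783, wider loci from 570 to 1787 and narrower loci from 194 to 1523. The class difference in kept share ran from 6.80 to 17.4 percentage points and that in width from -0.036 to -0.030. The direction of the width change and of both ratios thus rests on which replicate is used. Replicate 1 is the shorter list and the one matched to the knock-down in delivery, and the cause was not tested. No paired analysis was possible because there is 1 list upon knock-down and no result comes from a test. Depth is unknown, and an absent peak gives no measure of the signal below the peak threshold.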

Other observations

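Chromosome X stood outside the range of the 19 autosomes in several measures; it was picked after the values were seen, there is no test, and E14Tg2A is a male line. It held 887 H3K4me3 peaks upon knock-down, 840 in replicate 1 and 1043 in replicate 2. Knock-down over replicate 1 gave 1.06 in peak number on X, against 1.10 to 1.18 on autosomes, and knock-down over replicate 2 gave 0.850, against 0.871 to 0.959. Replicate 2 over replicate 1 gave 1.24, within the autosomal range of 1.18 to 1.31. Knock-down widths were above both replicates at 22.4% and below both at 31.7% of X loci, against 28.7 to 35.0% and 17.5 to 26.0% on autosomes. New loci were 29 of 825 knock-down loci on X (3.52%), against 5.32 to 8.34% on autosomes, while the kept share of 95.6% lay within the autosomal 94.2 to 97.5%.

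Loci with the same call lay near one another more often than other loci lay near them. Within 20 kb of another wider locus were 12 of 176 wider loci (6.82%), against 1.15% of the other loci in all 3 lists. For narrower loci the shares were 5.23% and 0.675%, for missing loci 6.99% and 3.87%, and for new loci 18.1% and 12.8%. Neighbouring loci are not independent, and these shares were added after the data were seen and not tested.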
